A study of Mus musculus with 4 samples.

Results

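The genes described here encode the machinery that docks, primes and fuses synaptic vesicles at the presynaptic terminal. They are 30 genes listed by symbol as presynaptic release, active zone and neurexin genes, and each matched 1 of the 53465 gene identifiers in the deposited count matrix. No cut on the measured values made the list, but earlier results of these data were known when it was chosen. RNA came from the lateral habenula, an epithalamic relay between the forebrain and the midbrain's monoamine neurons, of C57BL/6 mice that were socially isolated (2 libraries) or group-housed (2 libraries). The study's title names acute isolation. The labels give no other treatment or allele, and say nothing of the age and sex of the animals or of how long isolation lasted. Whether a library stands for 1 animal or several is not said, so the p-values reflect only how far these libraries differ, and part of that may be technical.

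Release works in steps. Synapsins hold vesicles in a reserve pool in the terminal. Rab3 proteins on the vesicle bind RIM at the active zone, which recruits Munc13 and calcium channels. Munc13 helps the SNARE proteins of vesicle and membrane to assemble, complexin holds the assembled complex ready, and calcium binding to synaptotagmin triggers fusion. Bassoon, Piccolo, ELKS and RIM-binding proteins scaffold the site, and neurexins link it across the cleft to postsynaptic partners. Lateral habenula neurons are mostly glutamatergic and send their axons to the midbrain.

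The libraries held 26428152 and 25985591 counts from isolated mice and 20897605 and 25640860 counts from group-housed mice. The 30 genes together took 1.01 and 0.918% of the counts in isolated replicates 1 and 2, against 0.964 and 0.965% in group-housed replicates 1 and 2. Their single-gene counts lay between 234 and 24243 in a library, so all 30 passed the low-count filter, and 17528 genes were tested in all. All 11 markers listed for the lateral habenula were detected in every library, with summed levels of 1942 and 1690 CPM in isolated and 1916 and 1821 CPM in group-housed libraries. Between groups 5 of them lay above 0 and 6 below, with a median log2 fold change of -0.11. None passed in edgeR, and 1 did in DESeq2, the calcium-binding protein gene Necab1 (log2 fold change -0.54, DESeq2 adjusted p = 0.00618, edgeR adjusted p = 0.409). CPM are counts scaled to a common library total, here after correction of the totals by the TMM method. All 14 markers listed for the medial habenula and all 15 for the thalamus were detected in every library too. Their sums in isolated libraries were 2236 and 2266 CPM (medial habenula) and 1936 and 1665 CPM (thalamus). In group-housed libraries they were 1877 and 1795 CPM, and 1923 and 2029 CPM. Detection of lateral habenula markers thus does not show that the samples held that nucleus alone.

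No gene of the release machinery differed between isolated and group-housed libraries past the threshold. In edgeR's quasi-likelihood test, adjusted by Benjamini-Hochberg over all 17528 genes at 0.05, 0 of 30 passed, with 0 in DESeq2 and 0 in limma-voom. The background was low, since of all genes 2 (0.0114%) passed in edgeR, 51 (0.291%) in DESeq2 and 2 (0.0114%) in limma-voom. Those of edgeR were the nicotinic receptor gene Chrnb3 and the choline transporter gene Slc5a7, both higher in isolated libraries. Both belong to the list of 14 markers of the medial habenula, the neighbouring nucleus, of which 12 lay above 0 (median log2 fold change 0.42) and DESeq2 called 8; their part in the values of the release genes was not tested. At an unadjusted p below 0.05, 4 of 30 lay past the line, where 893 of all genes (5.09%) did. These were Syn3, Rimbp2 and Erc2 on the higher side (2.83% of all genes) and Rph3a on the lower side (2.26% of all genes). The smallest adjusted p of the 30 was 0.758. The fitted log2 fold changes, isolated over group-housed, were above 0 for 13 genes and below 0 for 17, where 51.2% of all genes lay above 0 and 48.8% below. Their median was -0.02 (range -0.28 to 0.38), beside 0.0033 over all genes tested.

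The intervals bounded the differences between these libraries, and as the animals per library are not known, they give no bound for differences between mice. For 29 of 30 genes the 95% interval of the fold change stayed within 1.5-fold in either direction, as it did for 68.9% of all genes. The exception was Syn3, whose interval reached 1.57-fold. Other gene lists described below had a similar share. It was 13 of 13 for markers of neurons in general, 12 of 12 for astrocytes and 93.3% for a wider presynaptic list. The narrow intervals were thus not particular to the release genes. For 7 genes the isolated libraries were the 2 highest of the 4, as for 17.4% of all genes, and for 4 genes they were the 2 lowest, as for 16.3%. The difference between group means was larger than the difference between replicates in both groups for 8 genes (Syn3, Sv2b, Vamp1, Rph3a, Unc13a, Unc13b, Rimbp2 and Erc2), and for 21.4% of all genes. No test was made over the list.

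**Figure D1:**
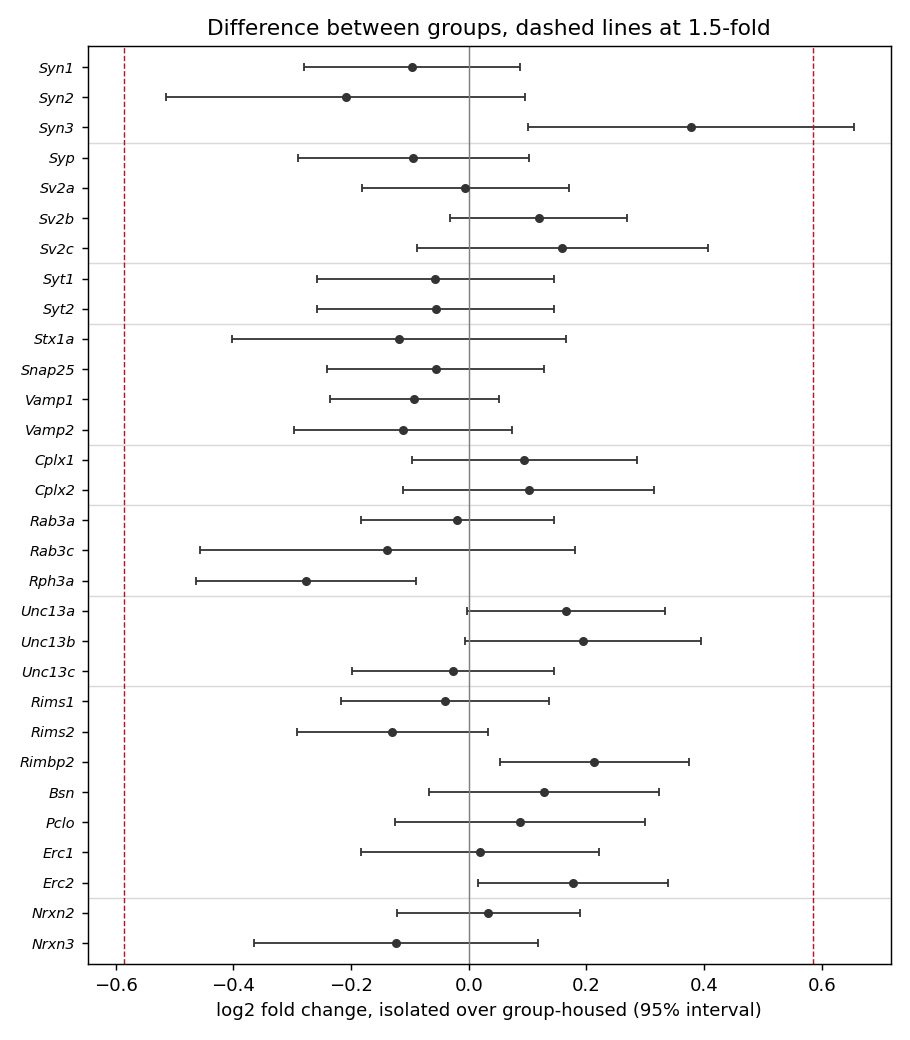
Log2 fold change of each of the 30 genes, isolated over group-housed, with its 95% interval (x axis) from edgeR's quasi-likelihood fit, in 2 libraries per group; grey lines part the genes by role. Each interval but that of Syn3 lies inside the dashed lines at 1.5-fold, and those of Syn3, Rph3a, Rimbp2 and Erc2 leave out 0 without adjustment for the number of genes.

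The levels of the 30 genes spanned a ratio of 234 when expressed per length, as CPM per kilobase of annotated exon. Complexin 1 (Cplx1) had the highest level, at a mean of 264 CPM per kilobase over the 4 libraries. It was followed by the vesicle GTPase gene Rab3a at 197, the vesicle membrane gene Syp (synaptophysin) at 174, the vesicle SNARE gene Vamp2 at 161 and the vesicle glycoprotein gene Sv2a at 157. The ranges over libraries of Syp and Vamp2 overlapped, as did those of Vamp2 and Sv2a, whereas Cplx1 (240 to 280) and Rab3a (190 to 204) did not overlap their neighbours. The lowest levels were those of Nrxn3 at 6.05, Erc1 at 3.43, Unc13b at 2.39 and Syn3 at 1.13 CPM per kilobase. With the longest annotated transcript in place of all exons, 19 of 30 genes changed rank by at most 5 places, and Syp came at rank 1 and Cplx1 at rank 4.

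**Figure D2:**
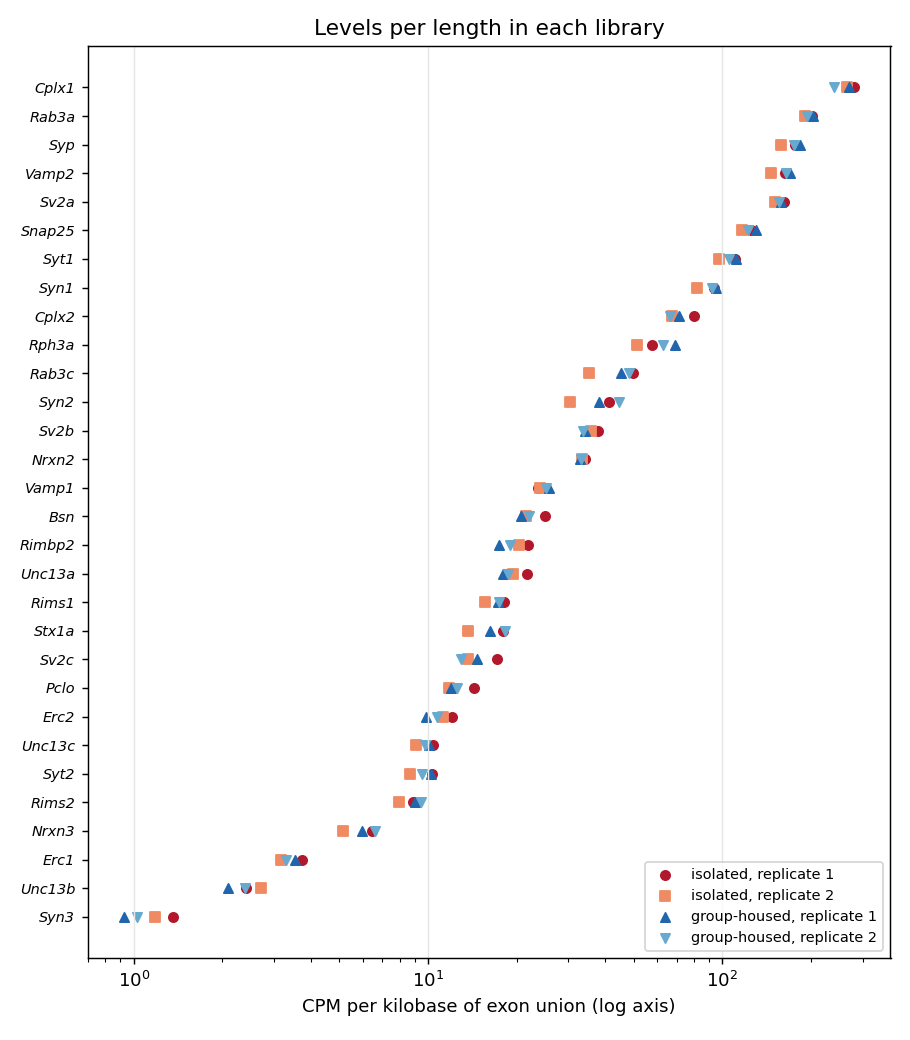
Level of each gene in each library, as CPM per kilobase of exon union on a log axis, ordered by the mean over the 4 libraries. Levels run from 1.13 for Syn3 to 264 for Cplx1. The 4 libraries of a gene lie close together compared with that whole range, but many genes next to each other in rank overlap.

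RefSeq promoter windows (250 bases before to 50 after a start site, GRCm38.p6) were given for 25 of the 30 genes, in 36 windows. The median window of these genes held 61.0% G or C and 16.5 CpG pairs, against 52.7% and 7 over all 32851 windows, and single windows held from 0 to 46. Both motifs given here were searched on both strands and were picked from several after the windows had been inspected. TGACGTCA, the cyclic AMP response element that CREB binds, was in the window of Syn1 alone of the 36 (2.78%), and in 1.79% of all windows. CAGCACC, the left part of the element through which the repressor REST silences neuronal genes outside neurons, was in 4 of 36 (11.1%), in windows of Rph3a, Sv2c, Syn1 and Unc13a, and in 7.14% of all. The letters do not overlap in these windows. A match describes the letters and shows no binding.

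The window of Syn1 is shown because it held the cyclic AMP response element, and those of Rph3a and Rimbp2 because these had the smallest p, on the lower and the higher side, of the genes with a window. Each is the window that covers the annotated gene start, read 5′ to 3′ on the gene's minus strand, with capitals marking TGACGTCA and CAGCACC. They lie at chrX:20920869-20921168, chr5:121010043-121010342 and chr5:128953437-128953736.
Syn1: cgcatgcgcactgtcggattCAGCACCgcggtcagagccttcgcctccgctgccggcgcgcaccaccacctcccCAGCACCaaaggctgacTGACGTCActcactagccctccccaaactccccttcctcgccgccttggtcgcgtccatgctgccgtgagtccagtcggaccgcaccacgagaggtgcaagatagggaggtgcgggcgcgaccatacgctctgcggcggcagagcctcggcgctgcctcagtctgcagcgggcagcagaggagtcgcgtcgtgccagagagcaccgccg
Rph3a: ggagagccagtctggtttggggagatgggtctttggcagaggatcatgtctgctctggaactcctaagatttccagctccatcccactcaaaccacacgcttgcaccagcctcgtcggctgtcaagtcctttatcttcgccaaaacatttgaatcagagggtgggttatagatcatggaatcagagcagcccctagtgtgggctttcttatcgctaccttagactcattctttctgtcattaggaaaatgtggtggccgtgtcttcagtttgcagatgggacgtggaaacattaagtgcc
Rimbp2: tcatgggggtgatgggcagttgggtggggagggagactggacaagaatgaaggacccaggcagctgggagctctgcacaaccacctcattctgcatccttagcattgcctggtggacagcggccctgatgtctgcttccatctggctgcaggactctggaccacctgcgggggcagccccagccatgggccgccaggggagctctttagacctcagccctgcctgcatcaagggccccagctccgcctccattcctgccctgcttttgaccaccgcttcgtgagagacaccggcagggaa
The Syn1 window held 33 CpG pairs, and those of Rph3a and Rimbp2 held 7 each and no capitals. The CAGCACC of Rph3a was thus in another of its 3 windows.

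Synapsins, which tether vesicles in the reserve pool, gave both the most positive value of the 30 and one of the most negative. Syn3 measured 16.7 and 14.5 CPM in isolated replicates 1 and 2, against 11.4 and 12.6 CPM in group-housed replicates 1 and 2. The isolated libraries were the 2 highest and did not overlap the group-housed ones. The log2 fold change was 0.38 (SE 0.12, 95% interval 0.10 to 0.65, edgeR adjusted p = 0.789). Syn3 (ENSMUSG00000059602) is a minus-strand gene of chromosome 10, from 86055125 to 86498896 (GRCm38), and Timp3, a metalloproteinase inhibitor gene on the opposite strand, covers 14.1% of its exon bases. Timp3 measured 219 and 211 CPM in isolated and 232 and 253 CPM in group-housed libraries, a log2 fold change of -0.17, and its part in the Syn3 value was not tested.

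Syn2 measured 290 and 214 CPM in isolated replicates 1 and 2, against 269 and 314 CPM in group-housed replicates 1 and 2. Isolated replicate 2 was the lowest of the 4, isolated replicate 1 lay between the group-housed ones, and the groups overlapped. The log2 fold change was -0.21 (SE 0.13, 95% interval -0.51 to 0.10). It was -0.45 without isolated replicate 1 (edgeR adjusted p = 0.0527) and -0.0069 without isolated replicate 2 (adjusted p = 0.995). In these and the other fits that leave out an isolated library, the spread comes from the group-housed pair alone, and the lone isolated library is assumed to vary like it. Syn1, the synapsin with the highest level per length, measured 310 and 269.9 CPM in isolated and 315 and 305 CPM in group-housed libraries (log2 fold change -0.10, SE 0.08). Per length, Syn1 made up 68.8 and 72.1% of the 3 synapsins in isolated and 70.9 and 66.9% in group-housed libraries. Syn3 made up 0.997 and 1.04% against 0.689 and 0.743%. These levels depend on the transcript model. The mean shares over the 4 libraries were 69.7% for Syn1 and 0.868% for Syn3 over all exons. With the longest transcript they were 55.8 and 1.77%.

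The genes of vesicle membrane proteins showed small differences in RNA. Sv2a, a glycoprotein of nearly all synaptic vesicles, measured 753 and 698 CPM in isolated and 732 and 724 CPM in group-housed libraries, a log2 fold change of -0.0056 (95% interval -0.18 to 0.17). Its relative Sv2b measured 316 and 301 CPM in isolated and 287 and 281 CPM in group-housed libraries. The groups did not overlap for Sv2b, with a log2 fold change of 0.12 (SE 0.07, edgeR adjusted p = 0.979). Sv2c, whose expression is more restricted in the brain, measured 166 and 132 CPM in isolated and 142 and 125 CPM in group-housed libraries (log2 fold change 0.16, 95% interval -0.09 to 0.41). Its isolated replicate 1 alone stood high, and the groups overlapped. Syp measured 923 and 828 CPM in isolated and 959 and 909.9 CPM in group-housed libraries, a log2 fold change of -0.09 (SE 0.09).

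For the calcium sensors and SNARE proteins all 6 fitted values were below 0, between -0.12 and -0.06, and none passed. Syt1, the main fast calcium sensor of the forebrain, measured 921 and 815 CPM in isolated and 928 and 877 CPM in group-housed libraries. Syt2, the fast sensor typical of hindbrain and of some inhibitory neurons, measured 79.1 and 66.4 CPM in isolated and 78.2 and 73.1 CPM in group-housed libraries. Isolated replicate 2 was the lowest library for both. Snap25, a SNARE of the terminal membrane, measured 851 and 792 CPM in isolated and 881 and 828 CPM in group-housed libraries, and the groups overlapped. Its membrane partner Stx1a (syntaxin 1A) measured 48.1 and 36.6 CPM in isolated and 43.1 and 48.6 CPM in group-housed libraries, the widest spread of the 6.

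The vesicle SNAREs Vamp1 and Vamp2 were the exception to the overlap. Vamp1 measured 240.1 and 244 CPM in isolated and 261 and 255 CPM in group-housed libraries, and Vamp2 measured 624 and 557 CPM in isolated and 647 and 629 CPM in group-housed libraries. For each of these genes the isolated libraries were the 2 lowest. The differences were small, with log2 fold changes of -0.09 (95% interval -0.24 to 0.05) for Vamp1 and -0.11 (95% interval -0.30 to 0.07) for Vamp2. Leaving out 1 library at a time gave -0.20 to -0.03 for Vamp2. Per length, Vamp1 made up 12.6 and 14.1% of the pair in isolated and 13.1 and 13.2% in group-housed libraries, so the balance of the vesicle SNAREs overlapped between groups.

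Complexins, which bind the assembled SNARE complex, were measured at 614 and 579 CPM for Cplx1 in isolated and 592 and 525 CPM in group-housed libraries. Cplx2 measured 396 and 332 CPM in isolated and 352 and 326 CPM in group-housed libraries. The groups overlapped for both, with log2 fold changes of 0.09 (95% interval -0.10 to 0.29) and 0.10 (95% interval -0.11 to 0.32). Leaving out 1 library at a time gave 0.00056 to 0.18 for Cplx1, both ends by omitting a group-housed library. Cplx1 made up 77.7 and 79.7% of the pair per length in isolated and 79.1 and 78.4% in group-housed libraries.

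Among the Rab3 proteins and their effector, Rph3a gave the most negative value of the 30. Rph3a encodes rabphilin 3A, which binds Rab3 on the vesicle and membrane phospholipids. It measured 268 and 237 CPM in isolated replicates 1 and 2, against 319.8 and 292 CPM in group-housed replicates 1 and 2. The isolated libraries were the 2 lowest of the 4, a log2 fold change of -0.28 (SE 0.08, 95% interval -0.46 to -0.09, edgeR adjusted p = 0.758, DESeq2 adjusted p = 0.356). The value was -0.37 (edgeR adjusted p = 0.0717) when isolated replicate 1 was left out and -0.19 when isolated replicate 2 was. Rph3a (ENSMUSG00000029608) is a minus-strand gene of chromosome 5, from 120940499 to 121010092, and no annotated exon of another gene overlaps its own.

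Rab3c measured 597 and 424 CPM in isolated replicates 1 and 2, against 543 and 581 CPM in group-housed libraries. The isolated libraries were the highest and the lowest of the 4. The log2 fold change was -0.14 (95% interval -0.46 to 0.18), which became -0.41 without isolated replicate 1 (edgeR adjusted p = 0.0554) and 0.09 without isolated replicate 2. Rab3a, the most abundant Rab3 of the brain, measured 448 and 424 CPM in isolated and 453 and 431 CPM in group-housed libraries, with a log2 fold change of -0.02 (95% interval -0.18 to 0.14). Rab3a made up 80.3 and 84.4% of the pair per length in isolated and 81.9 and 80.1% in group-housed libraries.

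Munc13 proteins prime vesicles by opening syntaxin for SNARE assembly. Unc13a, the main isoform of most excitatory synapses, measured 273 and 246 CPM in isolated and 227 and 236 CPM in group-housed libraries. Unc13b measured 54.9 and 61.4 CPM in isolated and 47.4 and 54.1 CPM in group-housed libraries. The groups did not overlap for either gene. The log2 fold changes were 0.17 (SE 0.07, edgeR adjusted p = 0.974) and 0.19 (SE 0.09, edgeR adjusted p = 0.979). Unc13c, best known from the cerebellum, measured 91.1 and 79.9 CPM in isolated and 88.4 and 85.7 CPM in group-housed libraries (log2 fold change -0.03). Its share of the 3 Munc13 genes per length was 30.1 and 29.0% in isolated and 33.4 and 31.6% in group-housed libraries. The mean share was 31.0% over all exons and 26.2% with the longest transcript.

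The active zone scaffolds gave 5 fitted values above 0 and 2 below. Rimbp2, a RIM-binding protein that links RIM to calcium channels, measured 174 and 162 CPM in isolated and 139 and 151 CPM in group-housed libraries. Each isolated library exceeded each group-housed one, a log2 fold change of 0.21 (SE 0.07, 95% interval 0.05 to 0.37, edgeR adjusted p = 0.815). Rimbp2 (ENSMUSG00000029420) is a minus-strand gene of chromosome 5, from 128757791 to 128953486, and an antisense gene, Gm42875, with at most 0.0381 CPM in a library, covers 0.428% of its exon bases. Erc2, an ELKS scaffold of the active zone, measured 117 and 109 CPM in isolated and 95.6 and 105 CPM in group-housed libraries. Its groups did not overlap (log2 fold change 0.18, SE 0.07, edgeR adjusted p = 0.928). The more widely expressed Erc1 measured 60.8 and 51.6 CPM in isolated and 57.2 and 53.7 CPM in group-housed libraries (0.02).

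The genes of the giant scaffolds Bassoon and Piccolo overlapped between groups. Bsn measured 398 and 344 CPM in isolated and 329 and 351 CPM in group-housed libraries, and Pclo measured 321 and 265 CPM in isolated and 269.6 and 281 CPM in group-housed libraries. In both, isolated replicate 1 was the highest library and isolated replicate 2 lay at or below a group-housed one. Of the RIM genes, Rims1 measured 133 and 115 CPM in isolated and 127 and 128 CPM in group-housed libraries, with a log2 fold change of -0.04. Rims2 measured 92.3 and 83.0 CPM in isolated and 93.6 and 98.2 CPM in group-housed libraries, with both isolated libraries lower (log2 fold change -0.13, 95% interval -0.29 to 0.03). Rims1 made up 67.1 and 66.2% of the RIM pair per length in isolated and 65.7 and 64.8% in group-housed libraries. That level depends on the transcript model, since the mean share over the 4 libraries was 66.0% over all exons and 50.6% with the longest transcript.

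Neurexins differed in spread. Nrxn2 measured 473 and 459 CPM in isolated and 454 and 457 CPM in group-housed libraries. These groups did not overlap, yet the log2 fold change was 0.03 (95% interval -0.12 to 0.19). Nrxn3 measured 81.4 and 64.6 CPM in isolated and 75.5 and 83.4 CPM in group-housed libraries, with isolated replicate 2 the lowest (log2 fold change -0.12, 95% interval -0.37 to 0.12). Of the 30 genes, 14 share exon bases with another annotated gene, and whether the counting used strand is not known from these sources. The overlap exceeded 10% of the exon bases for Syp, Syn3 and Erc1. The partners of Syp and Erc1 had at most 0.68 CPM in any library.

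**Figure D3:**
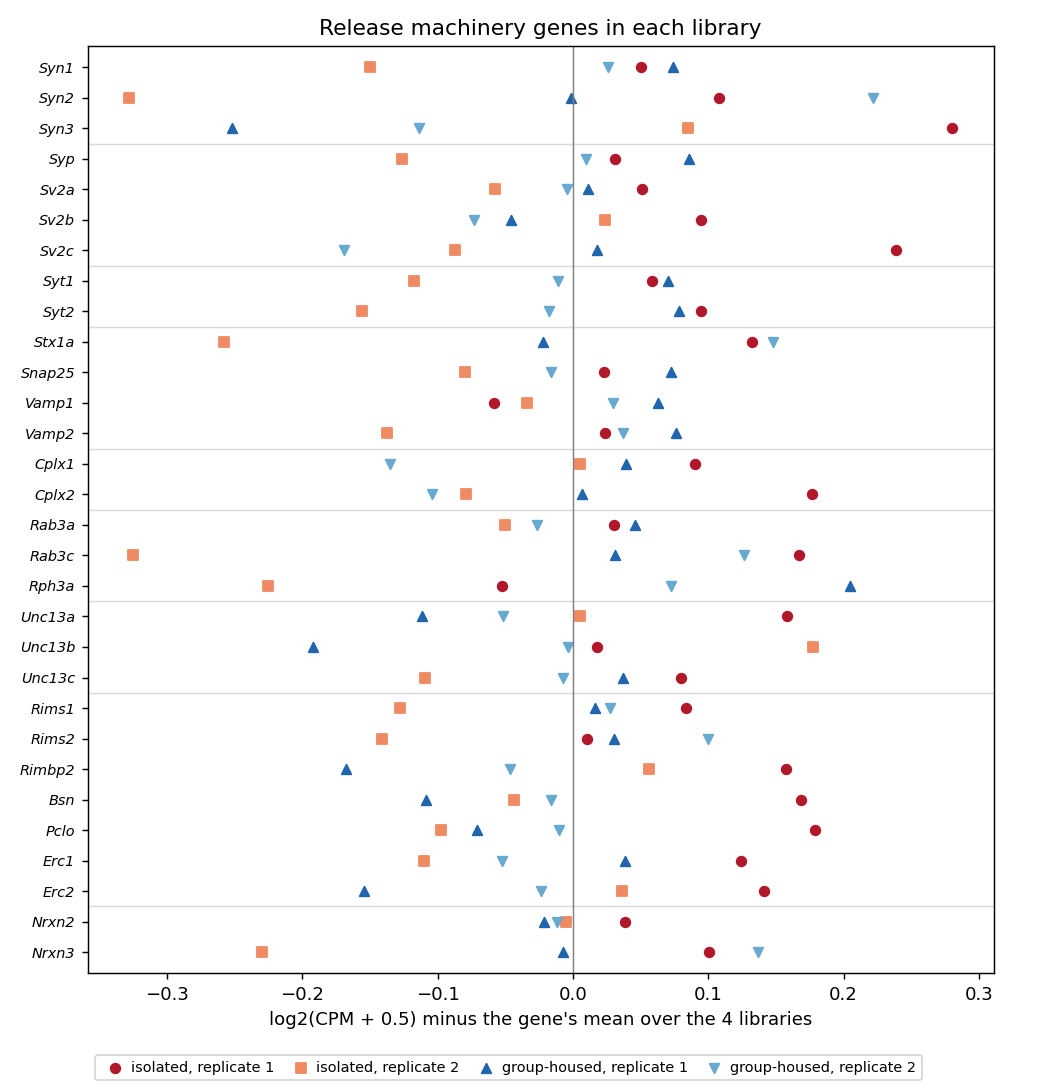
Level of each gene in each of the 4 libraries, as log2(CPM + 0.5) minus the gene's mean over the libraries (x axis); grey lines part the genes by role. Red circles (isolated replicate 1) lie to the right of orange squares (isolated replicate 2) for 28 of 30 genes, and for 49.8% of all genes. The groups do not overlap for 11 genes. In 7 of these the isolated libraries are higher, as for 17.4% of all genes, and in 4 lower, as for 16.3%.

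The isolated replicates differed from each other in one direction across the list. Isolated replicate 1 lay above isolated replicate 2 for 28 of 30 genes, where 49.8% of all tested genes did. The exceptions were Vamp1 and Unc13b. The median difference between these replicates was 0.17 on the log2 scale, larger in size than the median difference between groups. Group-housed replicate 1 lay above group-housed replicate 2 for 16 of 30 genes and for 49.9% of all genes, with a median difference of 0.02. As deviations from the mean of each gene, the median log2 level of the 30 genes was 0.09 in isolated replicate 1 and -0.09 in isolated replicate 2, against 0.02 and -0.01 in group-housed replicates 1 and 2. The median log2 fold change between groups was -0.09 when isolated replicate 1 was left out and 0.07 when isolated replicate 2 was, and 0 of 30 genes passed in either case.

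Markers of cell types also differed between the isolated replicates, and fewer cells of a type and less RNA per cell cannot be told apart in such bulk samples. All 13 markers of neurons in general were higher in isolated replicate 1 than in replicate 2, and their summed level was 5252 and 4871 CPM in isolated and 5347 and 5081 CPM in group-housed libraries. Of 15 thalamus markers, 14 were higher in isolated replicate 1 (sums of 1936 and 1665 CPM in isolated and 1923 and 2029 CPM in group-housed libraries). None of 10 ependymal markers was (81.4 and 167 CPM in isolated and 76.7 and 74.4 CPM in group-housed libraries), and none of 12 oligodendrocyte markers was (11049 and 13020 CPM in isolated and 14575 and 13567 CPM in group-housed libraries). Of 11 lateral habenula markers 9 were higher in isolated replicate 1, and of 14 medial habenula markers 5 were. No marker of these lists was at 0 in any library. Between groups, 14 of 15 thalamus markers lay below 0 (median log2 fold change -0.37), as did 12 of 12 for oligodendrocytes (-0.22). So did 10 of 12 for astrocytes (-0.12), 10 of 10 for microglia (-0.14) and 10 of 13 for neurons in general (-0.04). Over all genes 48.8% lay below 0. All 10 ependymal markers lay above 0 (0.76), as did 6 of 8 tested for hippocampus and cortex (0.33). The group-housed replicates differed as well. Choroid plexus markers summed to 55.2 and 163 CPM in group-housed replicates 1 and 2, and to 77.4 and 87.7 CPM in isolated ones. Group-housed replicate 1 was the higher of its pair for 1 of 9 tested choroid plexus markers and 1 of 15 thalamus markers. It was the higher for 12 of 13 markers of neurons in general. The part of these cell types in the levels of the release genes was not tested.

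**Figure D4:**
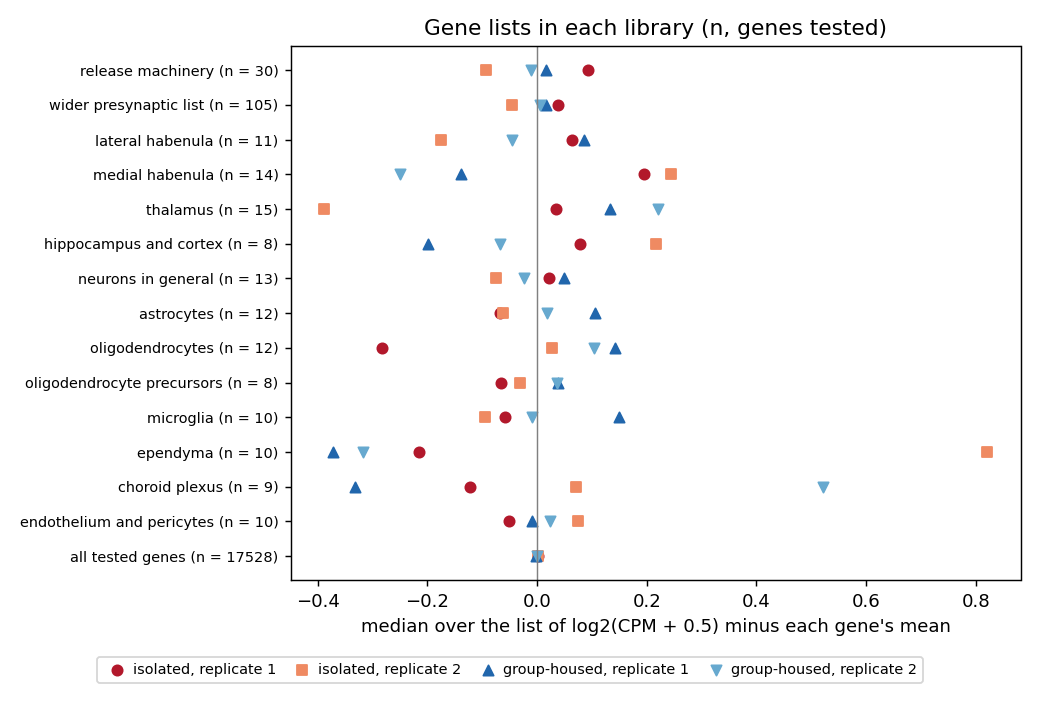
Median over each gene list of log2(CPM + 0.5) minus each gene's mean over the libraries (x axis), for each of the 4 libraries; n is the number of genes tested. The release machinery lies at 0.09 and -0.09 in the isolated replicates, neurons in general at 0.02 and -0.08, thalamus markers at 0.04 and -0.39, and ependymal markers at -0.22 and 0.82.

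A wider list held 107 other genes of the synapse and of vesicle traffic. They were further SNARE and priming factors, synaptotagmins, and vesicle membrane, active zone, adhesion and endocytosis genes. Of them 106 matched an identifier and 105 were tested. In edgeR's quasi-likelihood test 0 of 105 passed, with 9 at an unadjusted p below 0.05 (8.57%, against 5.09% of all genes). Of these 7 were higher and 2 lower, where 2.83% of all genes were higher and 2.26% lower at that p. DESeq2 called 3, where it called 51 of all tested genes (0.291%). The median log2 fold change was -0.01, with 44 genes above 0 (41.9%, against 51.2% of all genes) and 61 below. Of 29 endocytosis genes, 20 lay below 0, where 48.8% of all genes did, and 0 passed at an unadjusted p below 0.05. Their median relative log2 level was 0.03 and -0.06 in isolated replicates 1 and 2, against 0.04 and 0.01 in group-housed ones. Of the 29, 23 were higher in isolated replicate 1 than in replicate 2. So were 74 of the 105 genes (70.5%), where 49.8% of all genes were.

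On the higher side of this wider list the smallest p were those of Cadps2, Syt9 and Stxbp5l. Cadps2, a priming factor best known for dense-core vesicles, measured 179.6 and 197 CPM in isolated and 137.6 and 138.3 CPM in group-housed libraries, a log2 fold change of 0.45 (SE 0.07, edgeR adjusted p = 0.167). Syt9, a calcium sensor for release, measured 359 and 374 CPM in isolated and 279 and 255 CPM in group-housed libraries (0.46, SE 0.07, edgeR adjusted p = 0.167). Stxbp5l, a tomosyn that limits SNARE assembly, measured 72.0 and 72.4 CPM in isolated and 56.8 and 54.2 CPM in group-housed libraries (0.38, SE 0.06, edgeR adjusted p = 0.193). DESeq2 called Cadps2 and Syt9 higher (adjusted p = 0.000427 and 7.09e-05), and also Synpr (synaptoporin, a relative of synaptophysin), which was singled out only once its value was known. Synpr measured 204.9 and 205.4 CPM in isolated and 154 and 123 CPM in group-housed libraries (0.57, SE 0.10, DESeq2 adjusted p = 0.000213, edgeR adjusted p = 0.2196). For these 4 genes, picked by p or value, the isolated libraries were the 2 highest, as for 20 of the 105 genes (19.0%). Medial habenula markers lay higher in isolated libraries too, the groups being apart in that direction for 11 of 14, as for 17.4% of all genes, with sums of 2236 and 2266 CPM in isolated and 1877 and 1795 CPM in group-housed libraries, and their part in these values was not tested.

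On the lower side the smallest p were those of Doc2b, a calcium sensor for spontaneous and asynchronous release (log2 fold change -0.26, edgeR adjusted p = 0.885), Sypl, a synaptophysin relative outside the nervous system too (-0.22, 0.912), and Picalm, a clathrin adaptor (-0.12, 0.979). Doc2b measured 47.8 and 39.6 CPM in isolated and 50.01 and 54.7 CPM in group-housed libraries. The groups did not overlap for any of the 3, which were picked by their p. The isolated libraries were the 2 lowest for 21 of the 105 wider genes (20.0%), and for 16.3% of all genes.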

How the data were processed

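Trizol RNA went into Illumina TruSeq stranded mRNA libraries, per the labels' protocols. TopHat2 2.1.1, HTSeq, CASAVA and edgeR are named, with GRCm38 as build but no order of steps, per the submitters' processing notes. The sources used here do not give the annotation release or strand setting. The authors deposited raw read counts per gene, which were used throughout. Their normalised signal per library was not used here. Symbols, coordinates and exon lengths came from a GENCODE annotation of GRCm38, which named 53274 of 53465 identifiers.

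Groups followed the labels. Counts were filtered (filterByExpr), scaled by TMM (factors 0.983 to 1.020) and compared in R 4.3.3 with edgeR 4.0.16, whose quasi-likelihood test was 2-sided and without covariates, with p-values adjusted by Benjamini-Hochberg over 17528 genes. The common biological coefficient of variation was 7.20%, with 2 residual degrees of freedom. The 95% intervals use the fit's total degrees of freedom. A floor of 3 counts is 0.114 to 0.144 CPM, for counting error only. Alternatives were DESeq2 1.42.0, limma-voom (limma 3.58.1), other filters and scaling, a replicate block and leaving out each library. The fits were tested on simulated data.

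By rule, values in every library were due for genes with adjusted p under 0.05, the 3 highest and 3 lowest log2 fold changes and the 2 highest levels. Of the wider list, those called and the 3 smallest p per direction were named. Members, lists and rules were chosen with earlier results of these data known.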

Additional observations from a re-analysis of the deposited data

How the results depend on the processing

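In every alternative fit 0 of 30 release genes passed, with a smallest adjusted p of 0.0527 (Syn2, without isolated replicate 1). Leaving out isolated replicate 1 gave 221 genes called in all (151 higher, 70 lower), and over the 4 omissions of a library the count of genes ranged from 1 to 221 (0 to 151 higher, 0 to 70 lower). DESeq2 called 51 genes (41 higher, 10 lower), the fit without a low-count filter 15 (15 higher), and the replicate block 64 (52 higher, 12 lower). Of the wider list, DESeq2 called 3 genes, the fit with no filter 2 (Cadps2 and Syt9), the block 5 and the omissions 0 to 4; Syt6, Cadps2, Syt9 and Synpr passed without isolated replicate 1, where the group-housed pair alone gives the spread.

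Signs changed in 17 of 300 fitted values of release genes, all on leaving out a library, in 14 genes. They changed in 4 and 10 of 30 genes without isolated replicates 1 and 2, and in 2 and 1 without group-housed replicates 1 and 2. The other alternatives refitted the same 4 libraries, so the total of 300 overstates how stable the signs were. Over the omissions the log2 fold changes ranged from -0.015 to 0.31 for Sv2c, -0.032 to 0.23 for Cplx2, -0.059 to 0.22 for Pclo, -0.10 to 0.13 for Erc1, -0.20 to 0.00079 for Syn1, -0.062 to 0.048 for Sv2a, -0.15 to 0.029 for Syt1, -0.19 to 0.066 for Syt2, -0.33 to 0.066 for Stx1a, -0.064 to 0.021 for Rab3a, -0.41 to 0.088 for Rab3c, -0.13 to 0.066 for Unc13c, -0.15 to 0.062 for Rims1 and -0.30 to 0.034 for Nrxn3. In 11 others the sign held while an omission moved the value by over 1.5 times, with ranges of 0.017 to 0.23 for Bsn, 0.00056 to 0.18 for Cplx1, 0.11 to 0.24 for Erc2, 0.010 to 0.055 for Nrxn2, -0.21 to -0.055 for Rims2, -0.11 to -0.0050 for Snap25, -0.45 to -0.0069 for Syn2, -0.18 to -0.016 for Syp, 0.086 to 0.24 for Unc13a, 0.10 to 0.29 for Unc13b and -0.20 to -0.033 for Vamp2. The cause was not tested.

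The numbers 1 and 2 in the titles give no shared animal or batch. Deviations of same-numbered libraries correlated at 0.15 over 17528 genes, and with 2 pairs this does not establish pairing. With the replicate block 0 release genes passed (smallest edgeR adjusted p = 0.1004), and the median log2 fold change was -0.02.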
